A study of Homo sapiens with 4 samples.

Results

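The genes that encode cyclin-dependent kinase (CDK) inhibitors were examined for binding of the repressor BCL6 in SUDHL5, a cell line established from a diffuse large B-cell lymphoma. They are 7 of the 19974 genes on the autosomes and X that code for proteins, taken by name as the complete CIP/KIP group (CDKN1A, CDKN1B, CDKN1C) and the complete INK4 group (CDKN2A, CDKN2B, CDKN2C, CDKN2D). BCL6 was mapped by CUT&RUN, in which an antibody tethers a nuclease to its target in isolated nuclei and the DNA cut out around it is sequenced. The labels give 2 biological replicates with a BCL6 antibody (Cell Signaling D65C10) and 2 with normal rabbit IgG, all of them SUDHL5 cells in RPMI with serum and antibiotics, with no compound named. Values of the IgG libraries were not used here, and every value below belongs to the BCL6 libraries. All libraries come from a single cell line, and peak positions alone cannot show whether the labelled cell type is right.

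CDK inhibitors are small proteins that stop the enzymes driving the cell cycle. The CIP/KIP proteins p21 (CDKN1A), p27 (CDKN1B) and p57 (CDKN1C) bind cyclin-CDK complexes broadly, CDK2 complexes among them. The INK4 proteins p16 and p15 (CDKN2A and CDKN2B), p18 (CDKN2C) and p19 (CDKN2D) bind the CDK4 and CDK6 subunits and keep them from D-type cyclins. In germinal centre B cells BCL6 is known as a repressor of several such arrest genes, and CDKN1A, reached through the zinc finger protein MIZ1, is the textbook example.

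A peak was assigned to a gene when its summit lay in the gene or within 50 kb of either annotated end (RefSeq, hg38). The windows of CDKN2A and CDKN2B, which lie 7578 bp apart on chromosome 9, were joined and counted once, which leaves 6 loci. These loci held 12 of the 5230 replicate 1 peaks and 9 of the 3529 replicate 2 peaks. The antibody's target gene served as a check of the libraries, because BCL6 is known to bind its own promoter. Its window held 5 peaks in replicate 1 and 6 in replicate 2, and the strongest had fold enrichments of 6.38 and 11.5. These counts are for the whole window and do not show how many of the peaks lay at the promoter. Fold enrichment is the peak caller's ratio of summit signal to local background, as deposited.

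Peaks were seen near 6 of the 7 CDK inhibitor genes. In replicate 1, 5 of 7 genes had one, where 29.5% of all protein-coding genes did. In replicate 2, 5 of 7 had one, against 23.3% of all genes, and in either list 6 of 7 had one, against 37.3%. A shared region, meaning a stretch where peaks of both lists overlap by at least 1 bp, was found for 4 of 7 genes (CDKN1B, CDKN2A, CDKN2B and CDKN2C), against 10.2% of all genes. CDKN2A and CDKN2B owe theirs to the same regions, so this is 3 of 6 loci. Among the 10658 genes no longer than the longest of the 7 (CDKN2A, 27573 bp), 34.3% had a peak in either list and 9.03% a shared region. The 7 genes were chosen with results of these data known, so no test of enrichment was made.

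**Figure D1:**
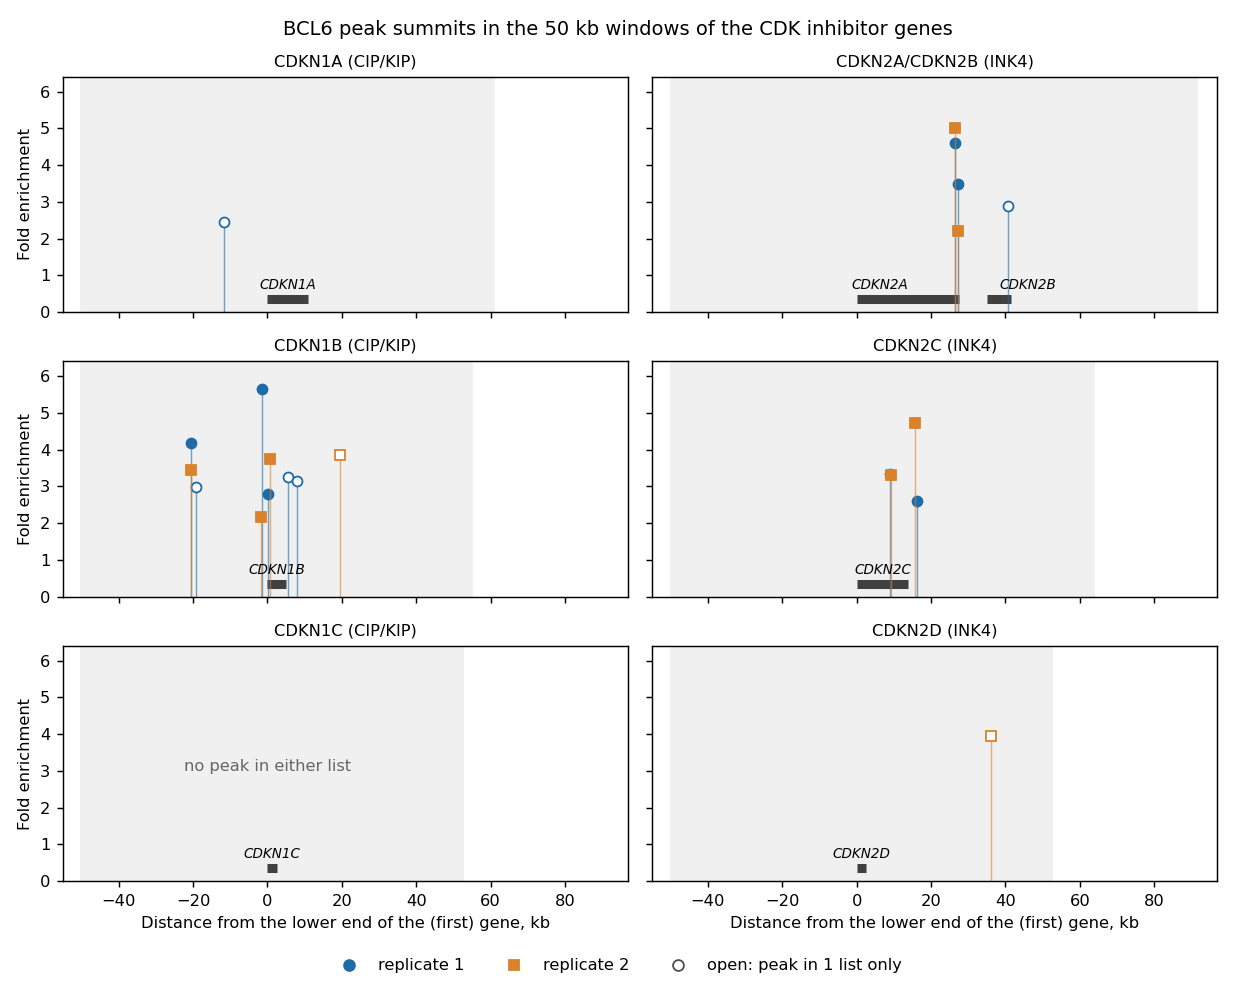
Position (x, kb from the lower annotated end of the gene, or of CDKN2A in the joined window) and fold enrichment (y) of every BCL6 peak summit in the windows, shaded grey, of the CIP/KIP genes (left) and the INK4 genes (right). Circles are replicate 1 and squares replicate 2, open symbols are peaks of 1 list only, and dark bars are the genes. Filled symbols are at CDKN1B, CDKN2A and CDKN2C, and the CDKN1C window is empty.

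The sequences before 5 of the starts are given first, because the peaks fall beside 3 of them and avoid the other 2. Each is the 250 bases ahead of an annotated start, 5′ to 3′ on the gene's strand, from RefSeq (GRCh38.p14). Capitals mark the Sp1 box GGGCGG on either strand, the element of CpG-rich promoters through which several CDK inhibitor genes are known to be driven. The CDKN1A stretch is chr6:36678464-36678713 (plus strand) and that of CDKN1B is chr12:12717118-12717367 (plus). The upstream CDKN2A start has chr9:21995325-21995574 (minus) and the downstream one chr9:21974858-21975107 (minus). For CDKN2C it is, at the third start, chr1:50969995-50970244 (plus).
CDKN1A: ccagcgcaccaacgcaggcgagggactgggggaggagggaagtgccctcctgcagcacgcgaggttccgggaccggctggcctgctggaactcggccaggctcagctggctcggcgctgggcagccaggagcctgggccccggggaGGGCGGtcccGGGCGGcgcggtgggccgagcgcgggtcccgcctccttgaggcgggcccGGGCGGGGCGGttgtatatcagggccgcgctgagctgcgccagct
CDKN1B: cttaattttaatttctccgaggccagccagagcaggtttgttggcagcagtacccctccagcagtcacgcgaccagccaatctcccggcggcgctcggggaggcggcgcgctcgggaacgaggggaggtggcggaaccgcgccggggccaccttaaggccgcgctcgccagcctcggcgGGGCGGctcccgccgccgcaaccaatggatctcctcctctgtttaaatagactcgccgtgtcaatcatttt
CDKN2A, upstream start: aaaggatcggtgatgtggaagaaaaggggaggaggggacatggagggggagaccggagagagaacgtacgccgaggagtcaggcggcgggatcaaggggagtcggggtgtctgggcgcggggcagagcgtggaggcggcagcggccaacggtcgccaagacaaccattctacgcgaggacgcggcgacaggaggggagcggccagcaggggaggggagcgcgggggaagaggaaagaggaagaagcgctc
CDKN2A, downstream start: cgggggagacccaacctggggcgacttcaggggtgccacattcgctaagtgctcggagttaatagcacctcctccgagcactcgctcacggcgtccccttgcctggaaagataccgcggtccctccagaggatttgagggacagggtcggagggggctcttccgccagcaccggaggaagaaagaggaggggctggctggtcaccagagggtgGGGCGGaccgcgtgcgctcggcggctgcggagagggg
CDKN2C, the third start: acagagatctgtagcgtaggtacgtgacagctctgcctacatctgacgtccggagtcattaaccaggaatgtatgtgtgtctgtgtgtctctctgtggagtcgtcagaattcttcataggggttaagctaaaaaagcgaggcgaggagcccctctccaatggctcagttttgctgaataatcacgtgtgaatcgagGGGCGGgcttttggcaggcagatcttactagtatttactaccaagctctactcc

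The table of starts lists 9 for 6 of the 7 genes and none for CDKN1C. GGGCGG was present before 7 of these 9 starts, where 53.7% of 22156 protein-coding promoters in the table had it. The 2 without it were the upstream CDKN2A start and the first CDKN2C start. TTCNNNGAA, the palindrome that BCL6 and STAT factors recognise, was before 0 of the 9 starts and 5.92% of all. The narrower TTCCTNGAA, whose letters are also a TTCNNNGAA match, was before 0 of 9 and 1.17% of all. Both strands were read and overlapping matches were counted. Missing letters say only that they are not in these 250 bases, and the 21 summits lay outside these stretches, in sequence that was not read. GC content of the 9 stretches ranged from 45.6% to 77.2%, with a median of 62% for all promoters. The lowest were the first start of CDKN2C and the third one, at 45.6% and 48.8%.

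CDKN1A, whose product p21 halts the cell cycle after DNA damage, lies on chromosome 6 from 36676463 to 36687332 (gene ID 1026, plus strand). Its window held 1 peak. It was in replicate 1 alone, with a fold enrichment of 2.44, a −log10 q of 1.65 (the 4.51st percentile of its list) and a summit pileup of 23 fragments (exact Poisson 95% interval 14.6 to 34.5). By q and by fold enrichment (the 5.45th percentile) it was among the weakest peaks of the list. By pileup it was near the middle, at the 47.9th percentile. The summit lay at −13.9 kb from the listed start, upstream of it, and 11.6 kb outside the annotated gene, and no peak of either list touched the 250 bases before the start. Replicate 2 had its nearest peak 82.5 kb away, beside SRSF3, a splicing factor gene.

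CDKN1B had the most peaks of the 7 genes, 6 in replicate 1 and 4 in replicate 2. Of all protein-coding genes, 0.956% had 6 or more replicate 1 peaks in their window and 1.47% had 4 or more of replicate 2. At least as many shared regions, 3, were near 0.811% of all genes. With reciprocal overlap of at least 50% in place of 1 bp, CDKN1B had 0 shared regions, because the replicate 2 peaks covered 48.7%, 23.7% and 44.5% of the wider replicate 1 peaks. The product p27 holds cells in quiescence. The gene (ID 1027, plus strand) spans 12717368 to 12722369 on chromosome 12 and lies 121 bp from GPR19, an orphan receptor gene. Of the 10 summits, 5 lay inside GPR19, 2 inside CDKN1B, 1 inside APOLD1 and 2 between genes.

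The strongest peak at CDKN1B was ahead of the gene, in a region on chromosome 12 from 12714071 to 12716573. Both of its summits lay inside GPR19, 1445 and 1558 bp from the nearer end of that gene. Replicate 1 had a fold enrichment of 5.66 there (−log10 q 19.2), the 94.4th percentile of its list. Replicate 2 had 2.16 (the 0.283rd percentile) with a −log10 q of 1.42, so by fold enrichment the replicates were at opposite ends of their lists. The summit pileups were 52 (38.8 to 68.2) and 30 (20.2 to 42.8), over local backgrounds of 8.364 and 13.35. By pileup both peaks stood high in their lists, at the 96.5th and 81.5th percentiles. The summits were 1567 and 1680 bp upstream of the start, and that of replicate 2 was the first base of its peak.

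A second region lay inside CDKN1B, just past its start, on chromosome 12 from 12717413 to 12719181. Neither peak covered the start, at 12717368, and the replicate 2 peak began at 12717894. Replicate 1 reached a fold enrichment of 2.81 and replicate 2 reached 3.76. Their pileups were 48 (35.4 to 63.6) and 39 (27.7 to 53.3). The summits were 140 and 766 bp past the start. Another region lay 20.5 kb upstream, inside GPR19, from 12695807 to 12697115. Its fold enrichments were 4.17 and 3.45, its −log10 q 12.5 and 8.47, and its summits lay 43 bp apart. Of these 3 regions it had the closest summits.

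The other 4 peaks at CDKN1B were in 1 list each. In replicate 1 they lay 19.2 kb upstream (fold enrichment 2.99), 5.42 kb past the start (3.25) and 7.86 kb past it (3.13). The last of these was 689 bp upstream of APOLD1, a gene for an apolipoprotein L domain protein, and had a pileup of 48 (35.4 to 63.6), as many fragments as the replicate 1 summit in CDKN1B. Replicate 2 had its own peak 19.6 kb past the start, inside APOLD1, with a fold enrichment of 3.85 and a pileup of 20 (12.2 to 30.9).

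CDKN1C, an imprinted gene whose product p57 restrains growth of the embryo (gene ID 1028, chromosome 11 from 2883218 to 2885775), had no peak in its window in either list. The nearest replicate 1 peak was 498 kb away, with a fold enrichment of 2.84. The nearest of replicate 2 was 108 kb away, 73.5 kb from an end of KCNQ1, a potassium channel gene, with 4.03 and a pileup of 9. Peak lists do not give the coverage where nothing was called, so an empty window does not show that BCL6 was absent there.

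**Figure D2:**
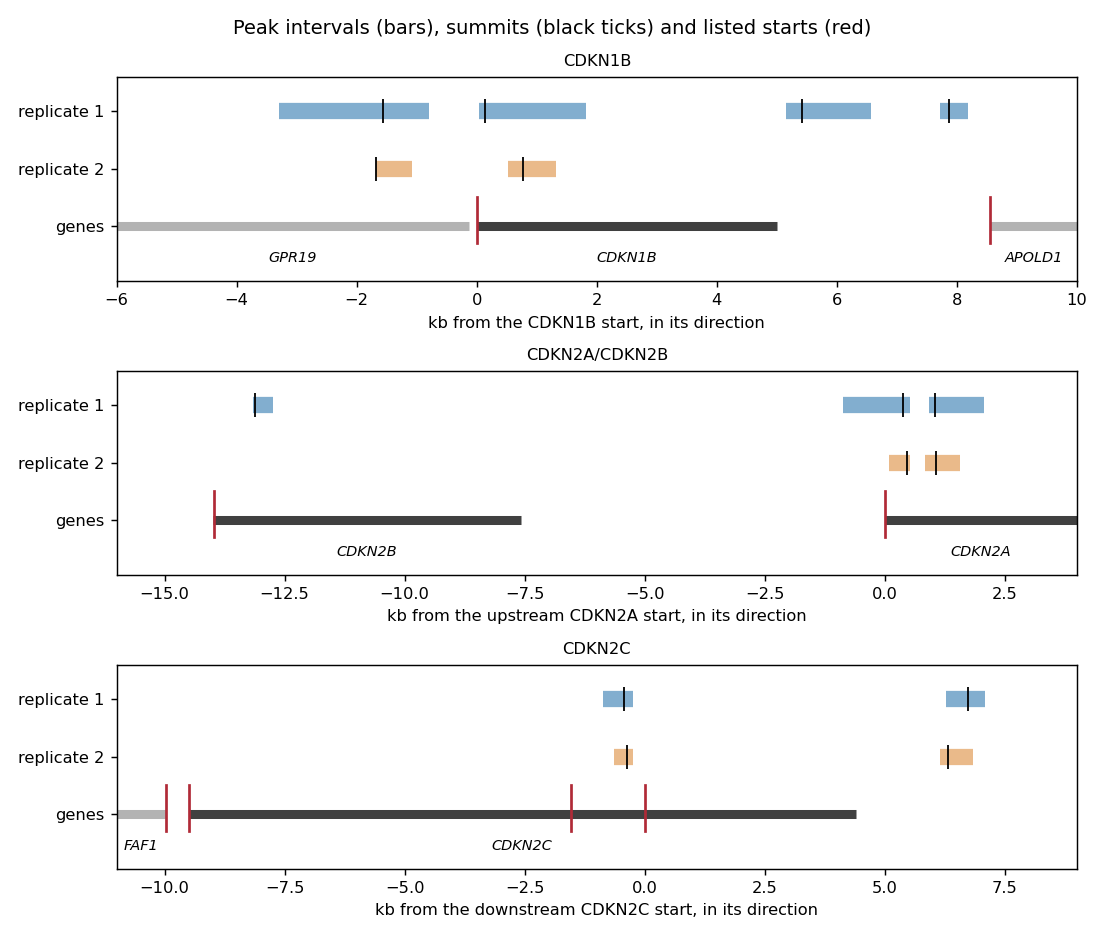
Peak intervals (bars), summits (black ticks), genes (grey bars, dark for the CDK inhibitor genes) and listed starts (red lines) near CDKN1B, CDKN2A with CDKN2B, and CDKN2C; x is the distance in kb from a start, in the direction of the named gene. GPR19 has no listed start. Peaks of both replicates lie on each side of the CDKN1B start, just past the upstream CDKN2A start and ahead of the third CDKN2C start.

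Among the INK4 genes, CDKN2A and CDKN2B had 3 replicate 1 peaks and 2 replicate 2 peaks in their joined window. On chromosome 9, CDKN2A (gene ID 1029) spans 21967752 to 21995324 and CDKN2B (gene ID 1030) 22002903 to 22009313, both on the minus strand. CDKN2A has a pair of alternative first exons, of which the upstream one belongs to ARF, an inhibitor of MDM2, and the downstream one to p16. Both shared regions were near the upstream start. The stronger lay on chromosome 9 from 21993267 to 21994493. Replicate 1 had a fold enrichment of 4.61 and a pileup of 58 (44.0 to 75), and replicate 2 had 5.0 and 39 (27.7 to 53.3). The summits were 1042 and 1069 bp past the upstream CDKN2A start, only 27 bp from each other. They were nearer to the start of CDKN2B-AS1 (ANRIL), a long noncoding RNA gene that runs the opposite way. From that start they lay at −509 and −536 bp, ahead of it.

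The second region, from 21994798 to 21996195, lay at the upstream start itself. The replicate 1 peak was 1398 bp wide and covered all 250 bases printed above for it, and the replicate 2 peak was 431 bp wide and covered 0. Fold enrichment was 3.49 and 2.20, and the −log10 q of 1.46 in replicate 2 was near the bottom of its list. The summits were 374 and 454 bp past the CDKN2A start. They were also 159 and 79 bp past the start of CDKN2B-AS1. The downstream start, that of p16, had no summit of either list closer than 19.4 kb.

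CDKN2B, which encodes p15 and answers to TGF-beta signalling, had 1 peak in its body. It was in replicate 1 alone, 859 bp past the start, with a fold enrichment of 2.89 and a pileup of 23 (14.6 to 34.5). The shared regions of CDKN2A came within 7.95 kb of CDKN2B.

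CDKN2C, which encodes p18, needed in mice for plasma cells to leave the cell cycle, had 2 peaks in each list, and both pairs overlapped. The gene (ID 1031, plus strand) spans 50960745 to 50974634 on chromosome 1 and lies 477 bp from FAF1, a gene for a FAS-binding protein. Inside the gene, on chromosome 1 from 50969379 to 50970006, the replicates had nearly equal fold enrichments, 3.33 and 3.31. The pileups were 35 (24.4 to 48.7) and 30 (20.2 to 42.8). The summits were at −433 and −379 bp from the third start, upstream of it, and 1106 and 1160 bp past the second. The peaks reached 12 bases into the CDKN2C stretch printed above, in each replicate, and covered 0 bases before the other 2 starts.

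The other CDKN2C region lay just beyond the end of the gene, from 50976399 to 50977321. Replicate 1 had a fold enrichment of 2.59 (−log10 q 2.58) and replicate 2 had 4.72 (9.80). Its summits, 2350 and 1921 bp outside the gene, were 429 bp apart. The pileups were 28 (18.6 to 40.5) in replicate 1 and 34 (23.5 to 47.5) in replicate 2.

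CDKN2D, the gene for p19 (gene ID 1032, chromosome 19 from 10566460 to 10568979, minus strand), had 1 peak in replicate 2 and 0 in replicate 1. It was 33.7 kb from CDKN2D and 211 bp past the start of SLC44A2, a choline transporter gene. Fold enrichment was 3.94 with a pileup of 19 (11.4 to 29.7). This was the summit farthest from its gene inside a window. The nearest summit beyond 50 kb was 52.7 kb from CDKN1A, in replicate 1, with 4.26.

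**Figure D3:**
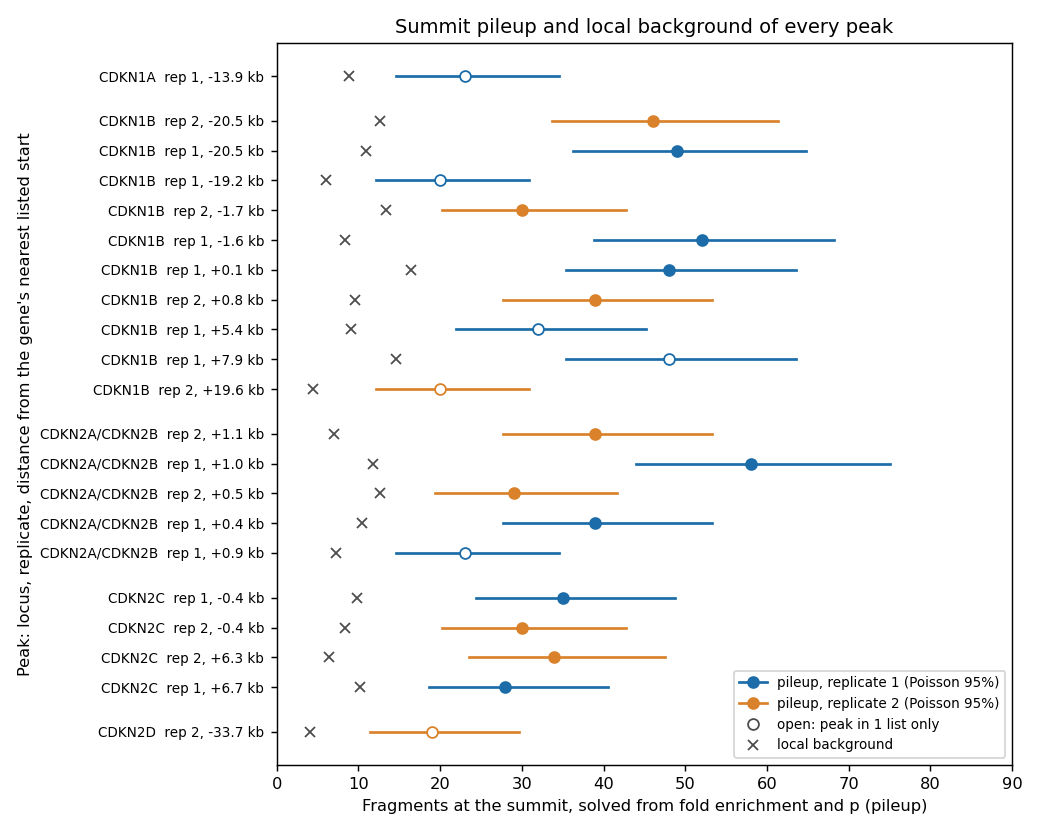
Summit pileup of each of the 21 peaks (points) with its exact Poisson 95% interval (lines) and the local background (crosses), CIP/KIP loci above INK4 loci; x is in fragments, and blue is replicate 1 and orange replicate 2. Open points are peaks of 1 list only. Pileups run from 19 at CDKN2D to 58 at CDKN2A, and local backgrounds from 4.08 at CDKN2D to 16.5 at CDKN1B.

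The CIP/KIP and INK4 groups were then set side by side. The 3 CIP/KIP windows together span 318 kb and held 7 replicate 1 and 4 replicate 2 peaks, which is 2.20 and 1.26 per 100 kb. The 3 INK4 loci span 358 kb and held 5 and 5 peaks, 1.4 and 1.4 per 100 kb. Exact Poisson 95% intervals of the counts were 2.81 to 14.4 and 1.09 to 10.2 for CIP/KIP, and 1.62 to 11.7 in each replicate for INK4. The intervals of the groups overlapped in each replicate. They treat peaks as independent, although most CIP/KIP peaks were at CDKN1B alone, and do not measure the spread between genes. Their overlap therefore decides nothing about the groups.

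The groups differed in how the peaks were spread over the genes. CIP/KIP peaks were 10 of 11 at CDKN1B, and 1 of 3 CIP/KIP genes had a shared region. Of the INK4 genes 3 of 4 had one, at 2 of 3 loci. The shared regions were 3 for CIP/KIP, all at CDKN1B, and 4 for INK4. The counts of regions moved with the matching rule. With reciprocal overlap of at least 50% there were 0 for CIP/KIP and 3 for INK4. With a −log10 q of at least 5 in both lists there were 2 for CIP/KIP and 1 for INK4, which turns the order round. Genes with a shared region were then 1 of 3 for CIP/KIP and 2 of 4 for INK4, with CDKN2A and CDKN2B owing theirs to the same region. Within 10 kb the peaks of CIP/KIP were 6 and those of INK4 9, so the order of the groups by count turned with the window. Genes are not replicates of a condition, and the difference between the groups was not tested.

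Fold enrichments of the groups overlapped. Median fold enrichment was 3.13 for CIP/KIP and 3.33 for INK4 in replicate 1, and 3.61 and 3.94 in replicate 2. The ranges ran from 2.44 to 5.66 for CIP/KIP and 2.59 to 4.61 for INK4 in replicate 1, and from 2.16 to 3.85 and 2.20 to 5.0 in replicate 2. Median pileup was 48 for CIP/KIP and 35 for INK4 in replicate 1, and 34.5 and 30 in replicate 2. Within 1 kb of a listed protein-coding start were 2 of 7 and 1 of 4 CIP/KIP summits, and 3 of 5 and 3 of 5 INK4 summits. GPR19 has no listed start, so the 3 replicate 1 and 2 replicate 2 summits inside it could not count for that gene. Each of these summits was 1445 bp or more from both ends of GPR19, so a start at either end would have added none. Only an unlisted start in the interior of GPR19 could have made the CIP/KIP counts too low in this way. The difference in these counts between the groups was not tested. Of all peaks on chromosomes with listed starts, 28.8% in replicate 1 and 32.0% in replicate 2 were that close.

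**Figure D4:**
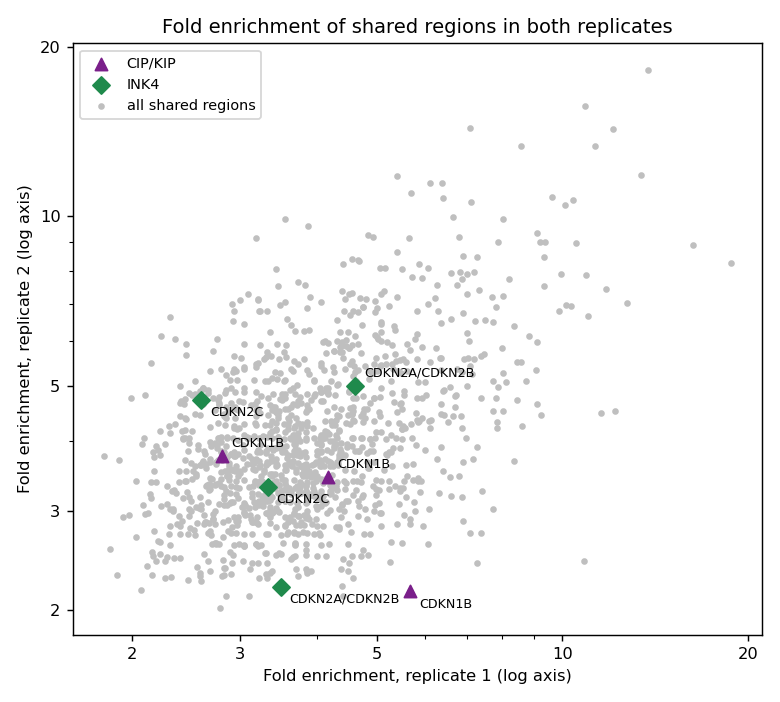
Fold enrichment in replicate 1 (x) and replicate 2 (y), both on log axes, of the shared regions of CIP/KIP genes (triangles), INK4 genes (diamonds) and all 1311 shared regions (grey). The 7 regions lie among the others, and the CDKN1B region with 5.66 and 2.16 lies at the lower edge.

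Most peaks of the CDK inhibitor loci were found in both lists. In replicate 1, 7 of 12 were in a shared region, against 25.7% of all peaks, and in replicate 2, 7 of 9, against 38.4%. By fold enrichment they stood near or below the lists as a whole, with medians of 3.19 in replicate 1 and 3.76 in replicate 2, against 3.55 and 3.74 for all peaks. Their pileups were higher, with medians of 37 and 30 against 23 and 21. Their local backgrounds were higher too, with medians of 10.0 and 8.36 against 5.90 and 4.63, and the part of local coverage in these shares was not tested. Replicate 1 peaks there had a median width of 979 bp and replicate 2 peaks 594 bp, against 454 and 435 bp for all.

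The replicates matched in position about as well as in all shared regions. The summits of the 7 shared regions were a median of 80 bp apart (range 27 to 626), against 91 bp for all 1311. The widest gaps, 429 and 626 bp, were beyond the upper quartile of all regions, 314 bp. In 5 of 7 they were within 200 bp, against 63.6% of all. The replicate 1 peak was the wider one in 7 of 7 regions (59.6% of all), and in 5 of 7 it enclosed the whole replicate 2 peak (28.5% of all). Taking the lower fold enrichment of each pair, the median was 2.81 for the 7 regions and 3.30 for all. The stronger CDKN2A region stood at the 85.6th percentile by this measure, and the lowest, ahead of CDKN1B, at the 1.98th.

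**Figure D5:**
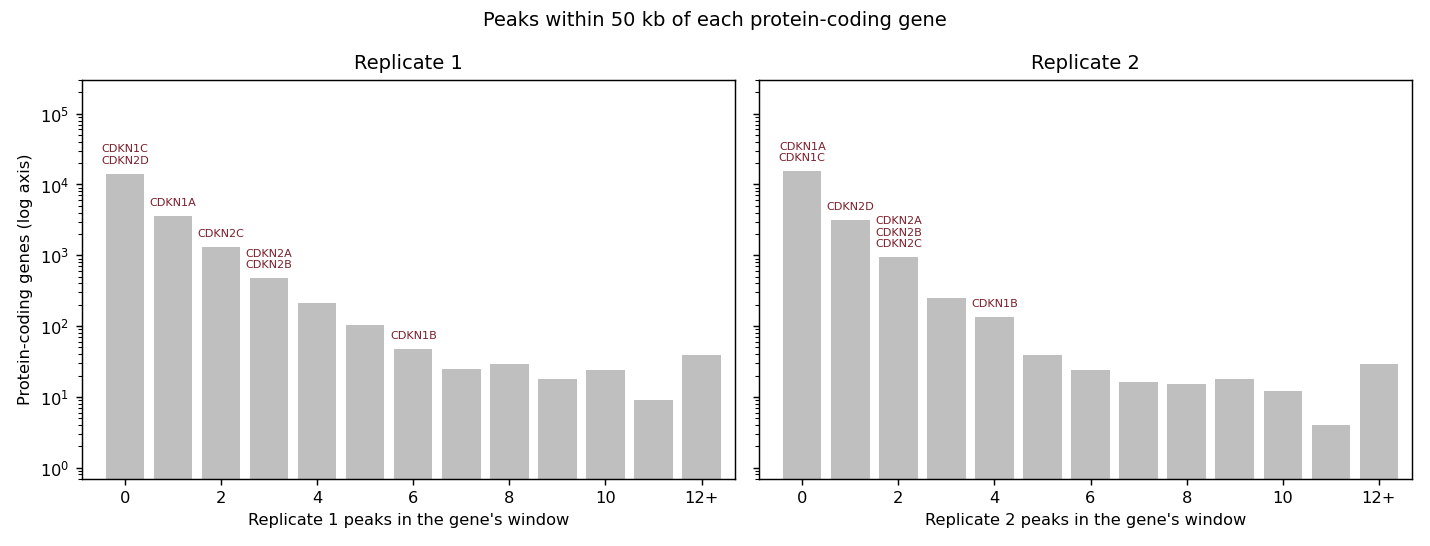
Number of protein-coding genes (y, log axis) by the number of replicate 1 (left) or replicate 2 (right) peaks in the gene's window; the CDK inhibitor genes are named above their bar, and the last bar pools 12 or more. CDKN1B stands at 6 and 4 peaks, and CDKN1C at 0 in both.

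Other genes of the same pathway were read in the same way, from lists of cyclins with CDKs, of RB with E2F factors, and of regulators of CDK inhibitor genes and proteins. Shared regions were near 4 of 11 cyclin and CDK genes (36.4%), 1 of 13 RB and E2F genes (7.69%) and 4 of 17 regulators (23.5%), where 10.2% of all genes had one. Among cyclins and CDKs these were CCND2, CDK6, CDK2 and CDK1. The one for CCND2, which encodes the cyclin D2 that INK4 proteins compete with, had fold enrichments of 4.85 and 3.57 and lay 15.5 kb outside the gene, nearer to TIGAR. CDK6, a direct partner of the INK4 proteins, had one inside the gene with 2.82 and 3.30. CDK2, the kinase held by p21 and p27, had one with 2.22 and 4.16, 39.0 kb outside the gene and nearest to PYM1. CDK1, the mitotic kinase, had one inside the gene with 2.10 and 2.97. CDK4 had 1 replicate 2 peak and no shared region.

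E2F5, a repressive E2F factor, was the one gene of its list with a shared region, at 3.63 and 2.46, which lay 6.15 kb outside the gene and nearest to RBIS. RB1, the target of CDK4 and CDK6, had 1 replicate 1 and 2 replicate 2 peaks that did not overlap. Of the regulators, FOXO3 and FOXO1, activators of CDKN1B, had regions inside the gene with 4.56 and 4.46, and with 4.79 and 3.03. FOXO1 had 12 replicate 1 and 5 replicate 2 peaks in its window, of which 1 region was shared. MYC, a repressor of CDKN1A and CDKN2B through MIZ1, had one inside the gene with 3.01 and 5.62. KDM2B, a histone demethylase that silences the INK4 locus, had 3.71 and 4.62. ZBTB17, the gene of MIZ1 itself, had 2 replicate 1 peaks and 0 replicate 2 peaks.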

How the data were processed

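BCL6 CUT&RUN was carried out on SUDHL5 nuclei in 2 biological replicates, numbered as in the sample titles. The submitters' processing notes name build hg38, the aligner Bowtie2, the peak caller MACS2, and cutadapt, FastQC, Picard, SAMtools, deepTools and bedtools. Not given in the sources used here are versions, settings and the peak caller's control. The deposited lists hold peaks called per sample, with a fold enrichment (ratio), −log10 p and −log10 q, a score that is the whole-number part of 10 times the −log10 q and a summit offset. The smallest deposited −log10 q is that of a q threshold of 0.05.

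Whole-number pileups and backgrounds were solved from the authors' deposited fold enrichment, (pileup + 1) / (background + 1), and the Poisson −log10 p. All 12 and 9 peaks of the loci were recovered within 0.001. Read totals are unknown, so pileups are not scaled between replicates, and intervals cover counting error only. Scripts (Python 3.11.15, scipy 1.17.1) were tested on simulated data. The 14 peaks off chromosomes 1 to 22 and X were left out.

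Genes came from RefSeq (GRCh38.p14), and starts from a promoter table holding 15813 protein-coding genes; exons were not separated. All 7 genes are named, and up to 4 genes of each pathway list by the smaller fold enrichment in both replicates; CDK4, RB1, ZBTB17 and genes beyond the windows were named after their values were seen. Some genes are not reported here. Members and lists were chosen with earlier results of these data known, and the motifs after the data were seen. With 1 condition there was no test between groups. Alternatives were other windows, −log10 q of at least 5, any base in place of the summit, each replicate left out, other matching rules and separate windows for CDKN2A and CDKN2B. A background of genes no longer than the longest of the 7 was another.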

Additional observations from a re-analysis of the deposited data

How the results depend on the processing

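Most counts kept within 1.5 times their value under the alternatives (47 of 68), among them the number of CDK inhibitor genes with a peak (4 to 6) or with a shared region (3 to 5), though not always of the same genes. The 47 include cases that could not change. Such were the counts of CDK inhibitor genes when only the background genes were replaced, and the CIP/KIP peaks with CDKN2A and CDKN2B separate. CDKN1B was without a shared region under reciprocal overlap, and CDKN2C was without one at a −log10 q of at least 5. The 21 peaks of the loci became 12 with a −log10 q of at least 5, of which 7 were of CIP/KIP and 5 of INK4, and 3 shared regions were left of 7. Within 10 kb the CIP/KIP peaks fell to 6. Leaving out 1 replicate gave 9 to 12 peaks in all, 4 to 7 for CIP/KIP and 5 to 5 for INK4. Reciprocal overlap of at least 50% left 3 shared regions, all of INK4 genes, since in the other 4, which include the 3 at CDKN1B, the replicate 2 peak covers under 50% of the wider replicate 1 peak.

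Cyclin and CDK genes with a shared region numbered 2 within 10 kb, 1 with a −log10 q of at least 5 and 0 with reciprocal overlap. RB and E2F genes numbered 2 within 100 kb and 0 with a −log10 q of at least 5. Regulators numbered 7 within 100 kb and 2 with a −log10 q of at least 5, with reciprocal overlap and with summits within 200 bp. No paired analysis was possible because the IgG libraries were not analysed here and only the BCL6 group has values. At a pileup of 20 the interval runs from 12.2 to 30.9, so counting error alone is large for peaks with few fragments.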

Other observations

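Beyond the 50 kb windows, up to 100 kb, a shared region lay 82.5 kb from CDKN1A, 435 and 422 bp from an end of SRSF3, with fold enrichments of 2.98 and 3.46 and pileups of 40 and 41. It was the nearest shared region to CDKN1A. Replicate 1 had a peak 86.4 kb from CDKN1B, 4.58 kb from DDX47, with 3.38. The nearest shared region was 411 kb from CDKN2D and 6730 kb from CDKN1C.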
